A study of Mus musculus with 8 samples.

Results

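The genes described here are 31 transcripts that mark granulocytes, monocytes and macrophages, taken as a named list from 53715 genes counted in sorted mouse blood stem cells. They fall into 5 primary granule genes of promyelocytes, 8 later granule and secreted genes of neutrophils, 8 monocyte and shared myeloid genes, and 10 macrophage genes. All 31 had a count in at least 1 of 8 libraries. The list was not defined by a measured value, but it was chosen with earlier results of these data known. The question was which of them could be measured in a stem cell sort at all, how they varied between libraries, and whether they differed between genotypes.

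RNA was sequenced from bone marrow cells in the lineage-negative, Sca-1-positive, Kit-positive gate that were also CD48- and CD150+. The 4 libraries labelled Gata2; Mx1-Cre Heterozygote came from 4 mice with 1 altered allele of Gata2, a transcription factor of blood stem cells, and an Mx1-Cre transgene. The 4 libraries labelled Gata2 WT came from 4 wild-type mice. Mice of both genotypes were 8 to 12 weeks old and had been given 6 doses of pIpC, an RNA mimic that induces interferon and thereby the Mx1 promoter, so no group was free of an interferon stimulus. Mx1-Cre is active in many cell types that answer to interferon and is not limited to stem cells. Whether wild-type animals also carried the Cre is not stated in the labels, nor how pIpC was timed nor which antibodies made up the lineage gate.

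Granulocytes and monocytes descend from a common progenitor, and macrophages arise from monocytes or persist in the marrow as resident cells. Granule proteins are made in a fixed sequence. Promyelocytes make the primary granule proteases and myeloperoxidase, and later stages make lactoferrin, cathelicidin and other secondary granule proteins. Low levels of lineage transcripts in stem and progenitor cells are often called lineage priming. In RNA pooled from many sorted cells, a low level in every cell and a high level in a few cells of another type cannot be told apart, and neither can fewer cells of a type and less RNA per cell.

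Libraries held between 16750778 and 22861884 fragments assigned to genes, and the smallest, heterozygote-labelled replicate 2, also had the fewest genes detected (16976, against at most 17906). Gata2 itself measured 44.8 ± 12.2 CPM in the heterozygote-labelled libraries and 35.8 ± 7.65 CPM in wild-type libraries (SD, n = 4 each; log2 fold change 0.33, SE 0.23, adjusted p = 0.858 by edgeR). The label was therefore not borne out by a lower total of Gata2 transcript, and directions below follow the labels. CPM here is a fragment count scaled to library size with edgeR's TMM factors, and TPM also divides by exon length, so levels of different genes are compared in TPM. A count of 0 in a library allows a level of up to 0.124 to 0.184 CPM, taking 3 counts as the limit, which covers counting error only. The stem cell genes Hlf, Mecom, Procr, Slamf1, Hoxb5, Ly6a and Kit exceeded 3 counts in every library of both genotypes, and Fgd5 did so in all but wild-type replicate 4, where it had 0.

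Stretches before a RefSeq start of 9 granule genes are shown. Mpo, Elane and Ctsg varied together between libraries, as did S100a8, S100a9, Ngp, Camp and Retnlg. Prtn3 is shown as the neighbour of Elane. C/EBP factors and PU.1 are well known activators of granule genes. Letters were searched on both strands for TTNNGNAA, a C/EBP-type pattern, and GAGGAA, the core of a PU.1-type pattern, and matches are in capitals. Windows are from RefSeq (GRCm38.p6), start 250 bases before the RefSeq transcript start and run in the direction of transcription. Of each window, the longest run outside the annotated exons of the gene is shown.
Mpo: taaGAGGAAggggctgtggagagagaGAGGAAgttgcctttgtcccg
Elane: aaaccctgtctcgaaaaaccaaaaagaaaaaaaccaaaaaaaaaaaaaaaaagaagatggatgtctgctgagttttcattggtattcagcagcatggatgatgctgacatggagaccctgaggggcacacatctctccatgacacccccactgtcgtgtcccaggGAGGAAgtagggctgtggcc
Prtn3: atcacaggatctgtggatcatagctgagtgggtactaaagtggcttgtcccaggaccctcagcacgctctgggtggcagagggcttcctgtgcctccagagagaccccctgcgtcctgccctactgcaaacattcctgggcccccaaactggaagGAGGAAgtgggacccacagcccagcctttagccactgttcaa
Ctsg: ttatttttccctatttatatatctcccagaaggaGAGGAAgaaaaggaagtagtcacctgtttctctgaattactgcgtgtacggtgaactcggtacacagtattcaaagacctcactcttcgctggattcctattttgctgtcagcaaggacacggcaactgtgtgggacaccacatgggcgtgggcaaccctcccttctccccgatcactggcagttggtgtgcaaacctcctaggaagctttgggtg
S100a8: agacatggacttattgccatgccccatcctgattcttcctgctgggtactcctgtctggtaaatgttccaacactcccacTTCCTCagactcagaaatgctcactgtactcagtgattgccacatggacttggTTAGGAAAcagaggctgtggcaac
S100a9: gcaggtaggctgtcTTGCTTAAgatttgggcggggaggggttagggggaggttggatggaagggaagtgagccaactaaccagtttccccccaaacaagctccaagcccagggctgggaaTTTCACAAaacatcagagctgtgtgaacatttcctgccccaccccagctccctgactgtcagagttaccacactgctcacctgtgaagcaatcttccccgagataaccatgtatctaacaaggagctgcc
Ngp: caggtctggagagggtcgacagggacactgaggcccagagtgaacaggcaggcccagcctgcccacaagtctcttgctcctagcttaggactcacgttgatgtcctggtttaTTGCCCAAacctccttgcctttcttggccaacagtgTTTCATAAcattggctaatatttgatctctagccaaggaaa
Camp: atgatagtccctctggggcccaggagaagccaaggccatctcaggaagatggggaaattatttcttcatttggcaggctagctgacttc
Retnlg: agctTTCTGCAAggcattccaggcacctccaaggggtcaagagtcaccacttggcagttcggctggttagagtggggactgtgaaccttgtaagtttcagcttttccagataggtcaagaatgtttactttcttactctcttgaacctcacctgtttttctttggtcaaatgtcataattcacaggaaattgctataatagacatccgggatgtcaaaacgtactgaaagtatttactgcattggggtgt

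These stretches lie at chr11:87793534-87793580 (plus strand) for Mpo, chr10:79886062-79886246 (plus) for Elane, chr10:79879417-79879613 (plus) for Prtn3 and chr14:56102575-56102824 (minus) for Ctsg. They lie at chr3:90668821-90668977 (plus) for S100a8, chr3:90695722-90695971 (minus) for S100a9, chr9:110419558-110419746 (plus) for Ngp, chr9:109849618-109849706 (minus) for Camp and chr16:48872358-48872607 (plus) for Retnlg. The Prtn3 stretch lies within the Prtn3 gene as annotated for the counts, which starts at 79874476, outside its annotated exons. A window of 250 bases was found for 26 of the 31 genes. The C/EBP-type pattern was in 17 of these, against 36.8% of 32851 mouse windows of the same length, and the PU.1-type core was in 15, against 23.3%. Of the 5 primary granule genes, 4 had the PU.1-type core and 1 (Ms4a3) had the C/EBP-type pattern. Of the 8 later granule genes, 3 had the PU.1-type core and 7, all but Camp, had the C/EBP-type pattern. A GATA-type pattern, AGATAA, was searched in the same way and left in lower case above. It was in the windows of S100a9, Ltf and Ccr2, against 10.0% of all windows. A match is a description of the letters in these windows, and a window without a match says only that these letters are not in it.

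A small core of the 31 transcripts was measured in every library, and most of the others had a count of 0 in some. With 1 library per mouse, a 0 cannot be assigned to the mouse or to its library. Over all genes, a library had a count for 16976 to 17906 of the 23967 genes with a count in any library. The share of all genes with a 0 in some library was not computed. Counts above 3 were found in all 8 libraries for 10 genes, which were Prtn3, Ms4a3, S100a8, S100a9, Ngp, Camp, Lyz2, Fcgr3, Cd68 and Cd163. The same number reached 1 CPM in all 8 libraries, 18 reached it in some, and 3 (Ly86, Mertk and Fcgr1) reached it in none. A count of 0 occurred in at least 1 library for 19 genes, and 25 had a mean under 10 CPM. Between 17 and 27 of the genes had a count in a given heterozygote-labelled library and between 19 and 27 in a given wild-type library. The lowest of these numbers was in heterozygote-labelled replicate 2, the library with the fewest fragments, and the part of depth in it was not tested.

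**Figure D1:**
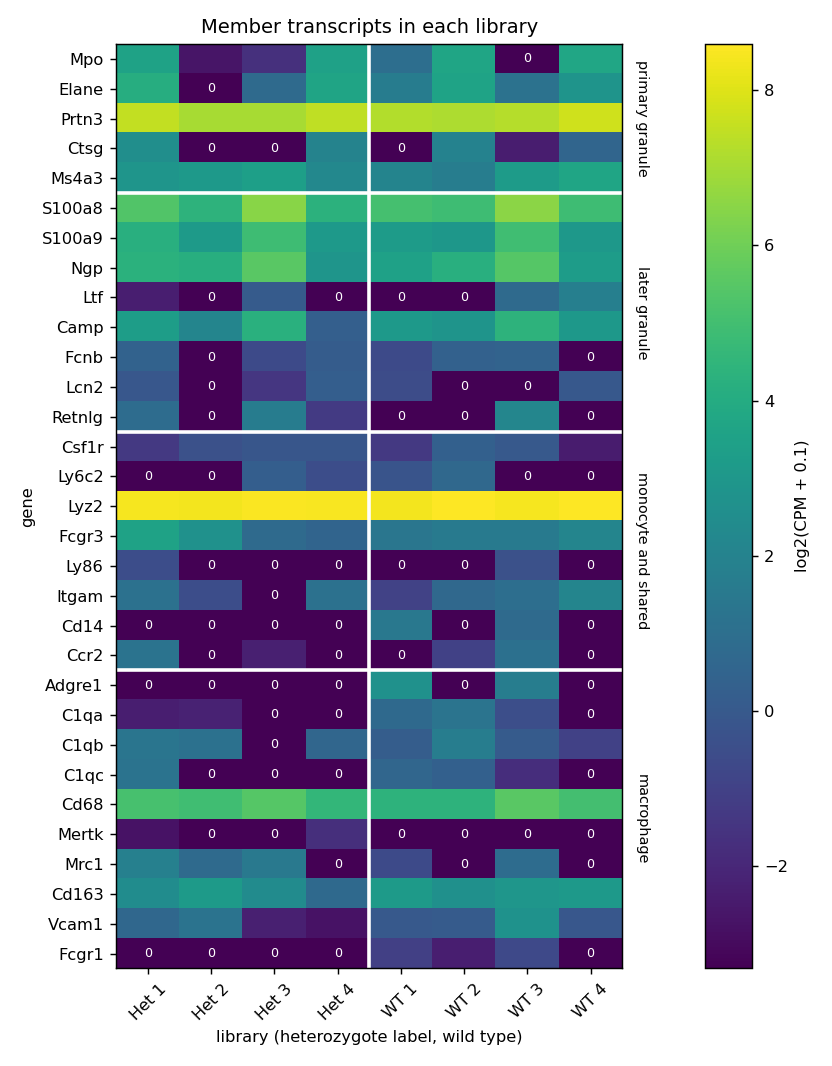
Level of each of the 31 genes (rows, by role) in each library (columns, heterozygote-labelled on the left and wild type on the right), as log2 of CPM plus 0.1, with 0 marking a count of 0. Lyz2 and Prtn3 are bright across all 8 columns, and 19 rows hold at least one 0.

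Lysozyme stood far above the rest. Lyz2 (ENSMUSG00000069516.8, chromosome 10 from 117277331 to 117282321 on the minus strand of GRCm38), the lysozyme of macrophages and granulocytes, averaged 704 TPM, higher than 98.3% of the 13992 genes tested. Prtn3, the primary granule protease proteinase 3, averaged 239 TPM and was higher than 94.0% of genes. S100a8 averaged 162 TPM, S100a9 73.7 TPM, Cd68 64.5 TPM, Ngp 45.4 TPM and Camp 33.0 TPM. The receptor for macrophage colony-stimulating factor, Csf1r, averaged 0.335 TPM, which was higher than only 1.19% of genes tested. Lyz2 and Prtn3 together made up 63.9% to 83.7% of the summed CPM of the 31 genes in a library. That sum was 732, 583, 762 and 637 CPM in heterozygote-labelled replicates 1 to 4, and 609, 658, 787 and 744 CPM in wild-type replicates 1 to 4. The ranges of the summed level overlapped.

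No tested gene of the list was called as different between the genotypes. Of the 31 genes, 21 passed the filter on low counts and were tested. edgeR called 0 of them at an adjusted p of 0.05, as it called 0 (0%) of all 13992 genes, and 0 had an unadjusted p under 0.05, against 792 genes (5.66%) in all. DESeq2 and limma-voom called 0 of the 21 too, where DESeq2 called 29 genes (0.207%) in all. The smallest unadjusted p was 0.263, for Cd163, and the smallest adjusted p was 0.876. Log2 fold changes, heterozygote label over wild type, were positive for 11 genes and negative for 10, with a median of 0.07 against -0.02 over all genes tested. No gene had groups that did not overlap, against 485 genes (3.47%) in all. Standard errors were wide, with a median of 0.85 on the log2 scale against 0.35 over all genes tested, and the smallest were those of Lyz2 (0.09), Prtn3 (0.17) and Cd68 (0.30). The 95% interval of most genes therefore spanned several fold.

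**Figure D2:**
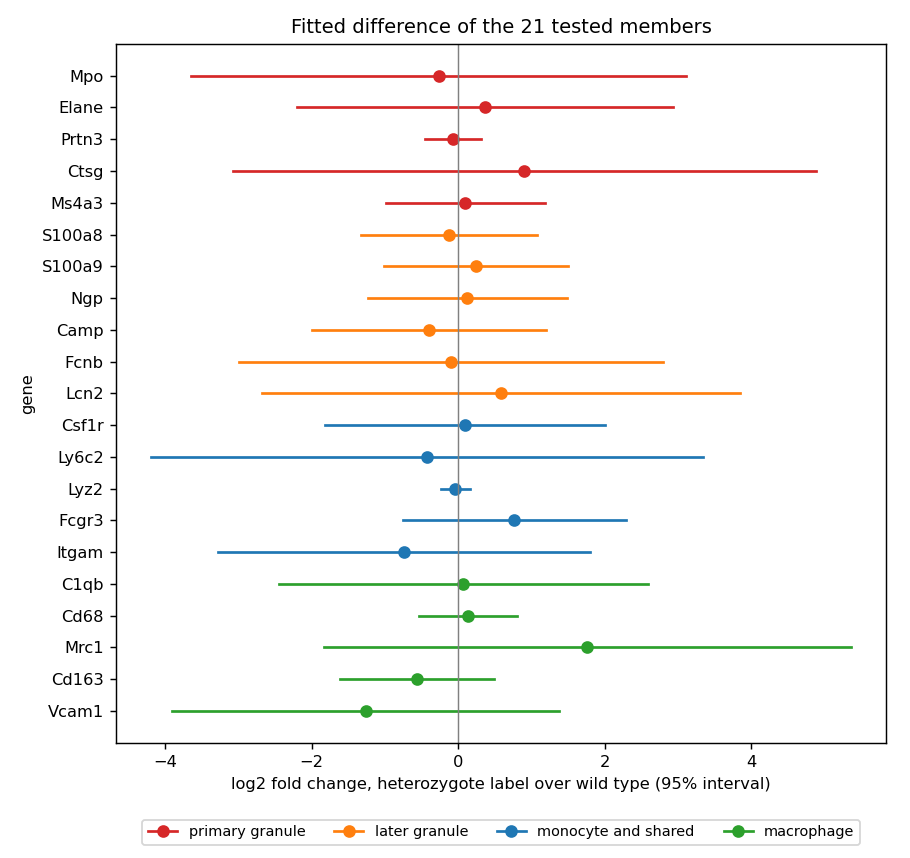
Log2 fold change (heterozygote label over wild type, points) with its 95% interval (lines) for the 21 genes tested by edgeR, coloured by role. Every interval crosses 0, and the shortest is that of Lyz2, which runs from -0.24 to 0.16.

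Among the primary granule genes, Prtn3 varied less between libraries than its neighbour Elane. Their mean levels were far apart, at 160 CPM for Prtn3 and 6.92 CPM for Elane, and the part of level in this was not tested. Prtn3 (ENSMUSG00000057729.12, chromosome 10 from 79874476 to 79883174) measured 184, 133, 132 and 179 CPM in heterozygote-labelled replicates 1 to 4 and 147.3, 142, 155 and 212 CPM in wild-type replicates 1 to 4. All 8 libraries lay within 1.6-fold of each other and the groups overlapped, with a log2 fold change of -0.07 (SE 0.17, adjusted p = 0.958 by edgeR) and a 95% interval from -0.45 to 0.31. Elane, which encodes neutrophil elastase and starts 3072 bases beyond the end of Prtn3 on the same strand, measured 17.0, 0, 1.64 and 12.5 CPM in heterozygote-labelled libraries and 3.14, 11.9, 2.15 and 7.0 CPM in wild-type libraries. Its lowest and highest values were both in heterozygote-labelled libraries, so the groups overlapped fully. Elane differed by 0.37 on the log2 scale (SE 1.15, adjusted p = 0.968 by edgeR).

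Mpo, the gene of myeloperoxidase (ENSMUSG00000009350.13, chromosome 11 from 87793581 to 87804413), ranged between libraries from undetected to over 10 CPM. Its counts were 232, 1, 4 and 221 in heterozygote-labelled replicates 1 to 4 and 45, 267, 0 and 299 in wild-type replicates 1 to 4, or 11.6, 0.0612, 0.218 and 11.3 CPM against 1.86, 12.97, 0 and 13.2 CPM. The highest 4 values were heterozygote-labelled replicates 1 and 4 and wild-type replicates 2 and 4, and they lay close together. Ctsg, the gene of cathepsin G, had 117, 0, 0 and 77 counts in heterozygote-labelled libraries and 0, 78, 2 and 31 in wild-type libraries, and was highest in the same 4 libraries. Its log2 fold change of 0.90 had an SE of 1.78, the widest of the list (adjusted p = 0.948 by edgeR), and that of Mpo was -0.27 (SE 1.51, adjusted p = 0.985). Ms4a3, a membrane protein of granulocyte and monocyte progenitors, did not follow this order, with 7.26, 8.69, 10.6 and 4.66 CPM in heterozygote-labelled libraries and 4.01, 3.20, 9.33 and 12.6 CPM in wild-type libraries.

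Mpo, Elane and Ctsg thus shared their 4 highest libraries, a pattern picked out after the values were seen. Their summed level was 34.5, 0.0612, 1.85 and 27.7 CPM in heterozygote-labelled replicates 1 to 4 and 5.01, 28.6, 2.25 and 21.5 CPM in wild-type replicates 1 to 4. The order of libraries did not follow genotype, since each genotype had 2 libraries above 20 CPM and 2 below 6 CPM. Of all genes tested, 199 (1.42%) had the same 4 libraries highest. Csf3r, the receptor for granulocyte colony-stimulating factor and no member of the list, had 133, 45, 1 and 89 counts in heterozygote-labelled libraries and 53, 145, 12 and 190 counts in wild-type libraries, with the same 4 libraries highest. It was picked out for these libraries from a list of 20 other granulocyte genes, where no other gene had the same 4 highest. Sex, read from Y-linked transcripts, was female for replicates 1 and 4 of each genotype and male for replicates 2 and 3. The part of sex in the order of Mpo, Elane and Ctsg was not tested.

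The later granule genes had another order of libraries. S100a8 (ENSMUSG00000056054.9, chromosome 3 from 90668978 to 90670035) and S100a9, which lie 22596 bases apart and encode the partners of the calcium-binding heterodimer calprotectin, were both highest in replicate 3 of each genotype. S100a8 measured 41.4, 20.8, 87.8 and 20.1 CPM in heterozygote-labelled replicates 1 to 4 and 34.1, 30.0, 91.7 and 29.3 CPM in wild-type replicates 1 to 4. S100a9 measured 18.5, 8.81, 29.9 and 8.65 CPM in heterozygote-labelled libraries and 9.27, 7.77, 30.6 and 8.02 CPM in wild-type libraries. In wild type, replicate 3 stood apart from the other 3 libraries, which lay close together for both genes. The log2 fold changes were -0.12 (SE 0.54, adjusted p = 0.979 by edgeR) for S100a8 and 0.24 (SE 0.56, adjusted p = 0.953 by edgeR) for S100a9.

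Ngp, the gene of neutrophilic granule protein (ENSMUSG00000032484.8, chromosome 9 from 110419747 to 110423012), measured 19.3, 17.6, 47.0 and 7.32 CPM in heterozygote-labelled libraries and 11.3, 18.3, 44.4 and 9.64 CPM in wild-type libraries. Camp, the gene of the antimicrobial peptide cathelicidin, measured 9.82, 4.22, 18.7 and 1.13 CPM in heterozygote-labelled libraries and 8.56, 7.04, 20.9 and 8.19 CPM in wild-type libraries. Both were again highest in replicate 3 of each genotype and overlapped between genotypes. Camp had the smallest unadjusted p of this role, with a log2 fold change of -0.40 (SE 0.71, adjusted p = 0.944 by edgeR), and Ngp differed by 0.13 (SE 0.61, adjusted p = 0.982 by edgeR).

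Retnlg, a secreted resistin-like protein of neutrophils, was too sparse to be tested, with 35, 0, 57 and 6 counts in heterozygote-labelled libraries and 0, 0, 92 and 0 in wild-type libraries. Its highest counts were in the same 2 libraries. Ltf, the gene of the iron-binding secondary granule protein lactoferrin, had 2, 0, 18 and 0 counts in heterozygote-labelled libraries and 0, 0, 34 and 78 counts in wild-type libraries, and was highest in wild-type replicate 4. Fcnb, the gene of the lectin ficolin B, had at most 27 counts in a library and Lcn2, the gene of the siderophore-binding lipocalin 2, at most 21. Both had a count of 0 in at least 1 library of each genotype, and neither had replicate 3 of both genotypes highest.

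Replicate 3 of both genotypes thus held the highest values of 5 of the 8 later granule genes, a pattern also picked out after the values were seen. The summed level of S100a8, S100a9, Ngp and Camp was 89.0, 51.5, 183 and 37.2 CPM in heterozygote-labelled replicates 1 to 4 and 63.3, 63.1, 188 and 55.1 CPM in wild-type replicates 1 to 4. Over the 21 tested genes of the list, 5 (23.8%) had these 2 libraries highest, against 948 of all genes tested (6.78%). Those 5 were S100a8, S100a9, Ngp, Camp and the macrophage gene Cd68, as Retnlg was not tested, so the share is not one of later granule genes alone. These 2 libraries were poor in Mpo, Elane and Ctsg, which summed to 1.85 CPM in heterozygote-labelled replicate 3 and 2.25 CPM in wild-type replicate 3. Across the other libraries the 2 sums did not run opposite. The sum of Mpo, Elane and Ctsg was lowest, 0.0612 CPM, in heterozygote-labelled replicate 2, where the later granule sum was 51.5 CPM. It was highest, 34.5 CPM, in heterozygote-labelled replicate 1, where the later granule sum was 89.0 CPM. Without replicate 3 of both genotypes in the fit, an alternative added after the data were seen, edgeR called 0 genes of the list, and the median of the later granule genes was 0.28.

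**Figure D3:**
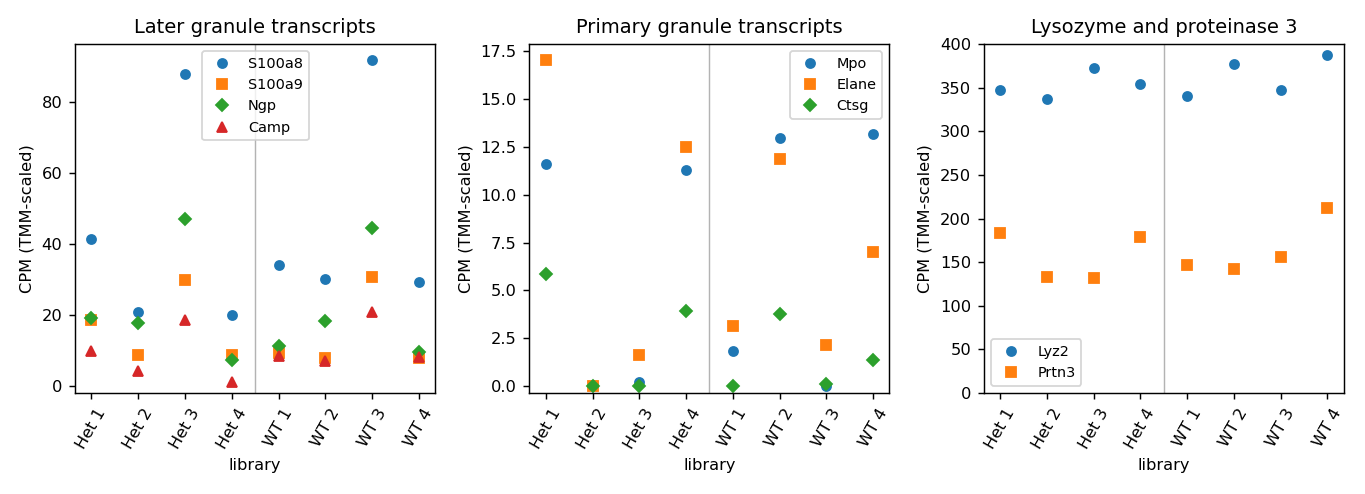
CPM of later granule genes (left), primary granule genes (middle) and Lyz2 with Prtn3 (right) in each library, heterozygote-labelled to the left of the grey line and wild type to the right. S100a8, S100a9, Ngp and Camp are highest in replicate 3 of both genotypes, and Mpo, Elane and Ctsg in heterozygote-labelled replicates 1 and 4 and wild-type replicates 2 and 4.

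Other genes of the granulocyte programme did not have replicate 3 of both genotypes highest. From a list of 20, 0 had those libraries highest, against 6.78% of all genes tested. At that share a count of 0 of 20 does not set the list apart. In every library, 9 (Gfi1, Cxcr2, Pglyrp1, Anxa1, Padi4, Serpinb1a, Nkg7, Itgb2 and Ncf1) exceeded 3 counts. Serpinb1a, an inhibitor of neutrophil proteases, averaged 241 ± 13.4 CPM in heterozygote-labelled and 253 ± 32.3 CPM in wild-type libraries, and Pglyrp1, a granule protein that binds peptidoglycan, 47.2 ± 9.0 CPM and 37.7 ± 7.18 CPM in the same groups (SD, n = 4 each). Other genes of the list were sparse. Ly6g, the surface antigen of mature mouse neutrophils, had at most 3 counts in any library, and Stfa1 had 0 in all. Mmp9, a gelatinase of late granules, had 33 counts in heterozygote-labelled replicate 1 and 0 elsewhere, and Cd177, a neutrophil surface protein, had 45 counts in wild-type replicate 1 and 0 elsewhere. Mmp8, the neutrophil collagenase, had 18, 0, 0 and 5 counts in heterozygote-labelled libraries and 36, 42, 59 and 0 in wild-type libraries. Cebpe, the transcription factor of secondary granule genes, had 28, 48, 0 and 47 counts in heterozygote-labelled libraries and 17, 23, 59 and 0 in wild-type libraries. It was thus at 0 in heterozygote-labelled replicate 3 and at its highest in wild-type replicate 3, the libraries where S100a8 was high. By edgeR, 0 of the 14 tested genes of this list passed and 0 had an unadjusted p under 0.05, with 6 positive and 8 negative log2 fold changes and a median of -0.17. The smallest unadjusted p values belonged to Chil3, a chitinase-like protein, at 1.59 (SE 0.91), Anxa1, the gene of annexin A1, at 0.32 (SE 0.18), and Nkg7, a granule membrane protein, at 0.36 (SE 0.22) on the log2 scale.

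Lyz2 was among the least variable abundant transcripts. It measured 347, 337, 373 and 355 CPM in heterozygote-labelled replicates 1 to 4 and 340.0, 377, 347 and 387 CPM in wild-type replicates 1 to 4. All 8 values lay within 1.15-fold of each other and the groups overlapped. The means were 353 ± 15.2 and 363 ± 22.9 CPM (SD, n = 4 each) in heterozygote-labelled and wild-type libraries, a log2 fold change of -0.04 (SE 0.09, adjusted p = 0.952 by edgeR). The coefficient of variation over the 8 libraries, the SD divided by the mean, was 0.0525. Only 1.16% of the 2247 tested genes with a mean of 100 CPM or more had a lower one, and their median was 0.147. Lyz1, the near-identical neighbour of Lyz2, had between 2 and 5 counts per library. Fragments that mapped to both copies were left out by the counting options in the file headers.

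The granule genes differed widely in this measure. Among the 5565 tested genes with means between 10 and 100 CPM, whose median coefficient of variation was 0.265, S100a8 reached 0.649, S100a9 0.654 and Ngp 0.702, higher than 98.6%, 98.8% and 99.3% of them. Among the 5107 genes between 1 and 10 CPM, with a median of 0.544, Ctsg reached 1.24, Mpo 0.989 and Elane 0.899, higher than 97.6%, 90.7% and 85.9%. Camp, in the same level band, was higher than 68.9% of genes. Other granule genes exceeded smaller shares of their level band than S100a8, S100a9, Ngp, Ctsg, Mpo and Elane did. Ms4a3 exceeded only 35.0% of the genes between 1 and 10 CPM, and of the genes under 1 CPM Fcnb exceeded 48.7% and Lcn2 71.0%. Prtn3, at 0.177, exceeded 67.8% of the 2247 most abundant genes, whose median was 0.147. In all, 16 of the 21 tested genes were above the median of their band.

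**Figure D4:**
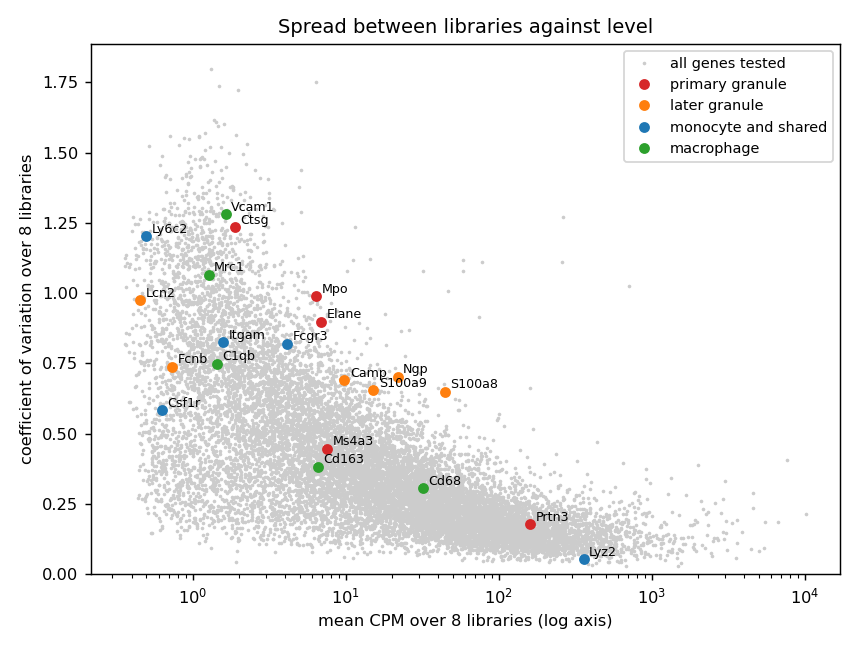
Coefficient of variation over the 8 libraries (SD divided by mean) against mean CPM (log axis) for all genes tested (grey) and the 21 tested genes of the list (coloured by role). S100a8, S100a9 and Ngp sit at the upper edge of genes of their level, and Lyz2 at the lower edge at 0.0525.

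Of the other monocyte and shared genes, Fcgr3, which encodes a low-affinity receptor for immunoglobulin G, had the smallest unadjusted p. It measured 11.7, 6.37, 1.64 and 1.33 CPM in heterozygote-labelled libraries and 2.44, 2.86, 2.87 and 4.18 CPM in wild-type libraries. The heterozygote-labelled values lay on both sides of the wild-type values, with a log2 fold change of 0.76 (SE 0.68, adjusted p = 0.888 by edgeR). Itgam, the gene of the integrin CD11b, had 41, 10, 0 and 40 counts in heterozygote-labelled libraries and 10, 31, 39 and 94 in wild-type libraries, a log2 fold change of -0.74 (SE 1.14, adjusted p = 0.935 by edgeR). Csf1r had 6, 11, 15 and 16 counts in heterozygote-labelled libraries and 7, 24, 19 and 2 in wild-type libraries, so it had a count in every library but did not exceed 3 counts in wild-type replicate 4. Ly6c2, part of the Ly6C antigen of inflammatory monocytes, had 0, 0, 20 and 12 counts in heterozygote-labelled libraries and 18, 32, 0 and 0 in wild-type libraries. It was thus counted in 2 of 4 libraries of each genotype. Its paralogue Ly6c1 had 19, 18, 0 and 27 counts in heterozygote-labelled libraries and 11, 13, 0 and 21 in wild-type libraries. Fragments that mapped to both genes were left out, so a 0 for Ly6c2 does not show that Ly6C transcripts were absent.

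Sparse monocyte genes were seen in a few libraries each. Ccr2, the chemokine receptor by which monocytes leave the marrow, had 44, 0, 2 and 0 counts in heterozygote-labelled libraries and 0, 8, 42 and 0 in wild-type libraries. Ly86, a partner of a Toll-like receptor relative, had 12 counts in heterozygote-labelled replicate 1, 14 in wild-type replicate 3 and 0 in the other 6 libraries. The 5 tested genes of this role had a median log2 fold change of -0.04, with 2 positive and 3 negative, but leaving out wild-type replicate 2 gave 0.62. From a further list of 20 monocyte and progenitor genes, 17 were tested, 0 passed and 2 had an unadjusted p under 0.05. Both were higher in heterozygote-labelled libraries, against 2.37% of all genes tested in that direction. Ctss, the gene of the lysosomal protease cathepsin S, averaged 74.7 ± 14.2 CPM in heterozygote-labelled and 43.1 ± 11.1 CPM in wild-type libraries (SD, n = 4 each; log2 fold change 0.79, SE 0.21, unadjusted p = 0.00417, adjusted p = 0.850 by edgeR). Flt3, a cytokine receptor of progenitors that is also on the dendritic cell list, differed by 0.88 (SE 0.35), and Psap, the precursor of the saposins of lysosomes, by -0.68 (SE 0.31). The median of that list was -0.03.

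Among the macrophage genes, Cd68 and Cd163 were measured in every mouse. Cd68, a lysosomal membrane glycoprotein, measured 34.6, 30.9, 44.0 and 23.6 CPM in heterozygote-labelled libraries and 20.98, 21.1, 46.1 and 33.1 CPM in wild-type libraries. It was highest in replicate 3 of both genotypes, as the later granule genes were, and differed by 0.14 (SE 0.30, adjusted p = 0.952 by edgeR) on the log2 scale. Cd163, the scavenger receptor for haemoglobin bound to haptoglobin, measured 5.51, 8.88, 5.24 and 1.59 CPM in heterozygote-labelled libraries and 8.85, 6.17, 7.61 and 8.68 CPM in wild-type libraries. The lowest 3 values were heterozygote-labelled, but the highest was too, so the groups overlapped, with a log2 fold change of -0.56 (SE 0.47, adjusted p = 0.876 by edgeR).

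Mrc1, the gene of the mannose receptor, had 70, 27, 50 and 0 counts in heterozygote-labelled libraries and 13, 0, 37 and 0 in wild-type libraries, a log2 fold change of 1.76 (SE 1.61, adjusted p = 0.892 by edgeR). Vcam1, an adhesion molecule of marrow macrophages and stroma, measured 1.5, 2.20, 0.109 and 0.0512 CPM in heterozygote-labelled libraries and 0.910, 0.971, 6.56 and 0.837 CPM in wild-type libraries. Wild-type replicate 3 stood far above the others. Vcam1 differed by -1.26 on the log2 scale (SE 1.18, adjusted p = 0.896 by edgeR), and without that library it was 0.091.

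Some macrophage and monocyte genes had counts in wild-type libraries only, a pattern picked out after the values were seen. Adgre1, the gene of the macrophage antigen F4/80, had 0 counts in all 4 heterozygote-labelled libraries and 153, 0, 67 and 0 in wild-type libraries. Cd14, the coreceptor for lipopolysaccharide, had 0 counts in all 4 heterozygote-labelled libraries and 64, 0, 34 and 0 in wild-type libraries. Fcgr1, the high-affinity receptor for immunoglobulin G, had 0 in all 4 heterozygote-labelled libraries and 9, 2, 11 and 0 in wild-type libraries. The counts of the first 2 genes were thus in wild-type replicates 1 and 3 alone, and replicate 4 had none of the 3 genes. Of 23967 genes with a count, 195 (0.814%) had 0 counts in all heterozygote-labelled and over 3 in at least 2 wild-type libraries, and 140 (0.584%) had the reverse. Mertk, a receptor for dying cells, went the other way at the limit of detection, with 1, 0, 0 and 4 counts in heterozygote-labelled libraries and 0 in all wild-type libraries.

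The 3 chains of complement C1q, which macrophages secrete and whose genes lie side by side on chromosome 4 with 3616 and 2851 bases between them, did not share their libraries. C1qa had 2, 2, 0 and 0 counts in heterozygote-labelled libraries and 38, 47, 13 and 0 in wild-type libraries. C1qb had 48, 34, 0 and 28 counts in heterozygote-labelled libraries and 25, 67, 20 and 9 in wild-type libraries. C1qc had 45, 0, 0 and 0 counts in heterozygote-labelled libraries and 35, 24, 4 and 0 in wild-type libraries. C1qb was thus found where C1qa and C1qc were at 2 counts or fewer, as in heterozygote-labelled replicates 2 and 4, and all 3 chains exceeded 3 counts together in wild-type replicates 1, 2 and 3 only. The gene C1qb was tested and differed by 0.07 (SE 1.13) on the log2 scale.

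Of these genes, Adgre1, Cd14, Fcgr1, C1qa, C1qc and Mertk did not pass the filter on low counts. When all genes with a count were tested, Adgre1, Cd14, Fcgr1 and C1qa had an unadjusted p under 0.05 and lower values in the heterozygote-labelled libraries, each with an adjusted p of 0.593 by edgeR. Of the 23967 genes tested in that way, 3.31% had such a p in the same direction and 6.14% in either. With a filter at a mean of 1 CPM the gene with such a p was Adgre1, against 5.96% of genes. These 4 genes entered the tests through their wild-type counts and were picked out for them, so the tests restate the counts above and lend them no further support. Adgre1 was tested in 2 of the 18 alternatives, C1qa in 6, and Cd14 and Fcgr1 in 1, with an adjusted p of 0.593 or more in each.

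**Figure D5:**
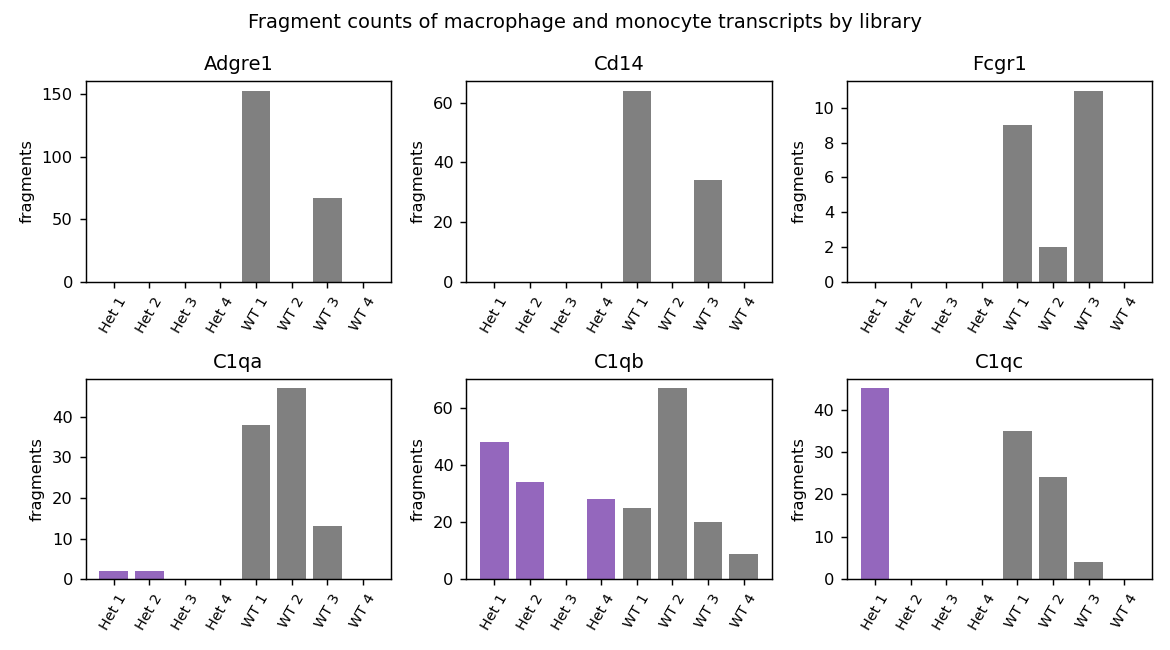
Fragment counts (bars from 0) of 5 macrophage genes and Cd14 in each library, heterozygote-labelled in purple on the left and wild type in grey on the right. Adgre1 and Cd14 have bars in wild-type replicates 1 and 3 only, and C1qb has bars in 7 of the 8 libraries.

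Of 16 other macrophage genes, Vsig4, a complement receptor of resident macrophages, was the only one with counts in wild type alone, 17 in wild-type replicate 1. Pparg, also on this list, went the other way. It had 43, 42, 0 and 0 counts in heterozygote-labelled libraries and 0, 0, 0 and 2 in wild-type libraries. Marco, Cd5l, Clec4f and Siglec1 had 0 counts in all 8 libraries and were thus not detectable at this depth, while Slc40a1, Spic, Apoe, Maf and Gas6 exceeded 3 counts in every library. By edgeR 7 of the 16 were tested, 0 passed and 1 had an unadjusted p under 0.05, lower in the heterozygote-labelled libraries, against 3.29% of all genes tested in that direction. It was Apoe, the gene of apolipoprotein E, with 603 ± 66.3 CPM in heterozygote-labelled and 771 ± 98.3 CPM in wild-type libraries (SD, n = 4 each), a log2 fold change of -0.35 (SE 0.12, unadjusted p = 0.0155, adjusted p = 0.850 by edgeR). Gas6, a ligand of Mertk, differed by -0.80 and Spic, a transcription factor of red pulp macrophages, by 0.30 on the log2 scale, and the median of the 7 was -0.35.

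The part of other blood lineages in these patterns was not tested. The summed levels of the marker lists given here overlapped between the genotypes for all but the dendritic cell list. The B cell genes Pax5 and Igll1 were at 0 in all libraries, and Cd79b exceeded 3 counts in all 8. The T and NK cell list summed to 12.1 to 22.5 CPM in heterozygote-labelled and 13.8 to 29.5 CPM in wild-type libraries, with Cd3e, Cd3g, Cd8a, Ncr1 and Gzma at 0. Lymphocyte transcripts were thus present only in part. The erythroid list summed to 22.8 to 56.7 CPM in heterozygote-labelled and 40.6 to 82.4 CPM in wild-type libraries, and the megakaryocyte and platelet list to 499 to 799 CPM in heterozygote-labelled and 653 to 935 CPM in wild-type libraries. The mast cell and basophil list summed to 16.8 to 24.5 CPM in heterozygote-labelled and 15.0 to 40.9 CPM in wild-type libraries, the plasma cell list to 218 to 277 CPM and 215 to 367 CPM, and the endothelial list to 56.8 to 82.1 CPM and 71.9 to 97.4 CPM in the same groups. The dendritic cell list, with Siglech and Cd209a at 0, summed to 103.5 to 119 CPM in heterozygote-labelled and 81.1 to 103.1 CPM in wild-type libraries, so the ranges all but met. Most of that sum was Bst2, with means of 95.9 and 86.6 CPM in the same groups (adjusted p = 0.871 by edgeR). The groups of Bst2 did not overlap, as in 3.47% of all genes tested. The sum itself was not tested and is no measure of dendritic cells. The eosinophil list reached at most 3.17 and 4.81 CPM and the stromal list at most 12.3 and 10.3 CPM in heterozygote-labelled and wild-type libraries.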

How the data were processed

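RNA of sorted stem cells from 8 mice (1 library each) was depleted of ribosomal RNA and sequenced as paired reads of 75 bases from strand-specific libraries, per the labels' protocols. The submitters' processing notes name Trim Galore and cutadapt for trimming and STAR 2.5.1b for alignment to GRCm38. Gene counts (GENCODE M17) came from featureCounts, version 1.6.2 per the file headers and 1.5.1 per the processing notes. The deposited values are raw fragment counts, not normalized by the authors. Symbols from a GENCODE annotation matched 53620 identifiers, leaving 95 unnamed. Library totals were between 16750778 and 22861884 fragments, without molecular identifiers against PCR copies. All pairs of libraries differed by more than sampling noise (lowest chi-square per degree of freedom 35.4).

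Genes were kept by filterByExpr, scaled by TMM (factors 0.946 to 1.08) and tested with robust quasi-likelihood fits of edgeR 4.0.16 (R 4.3.3), genotype being the only term. Two-sided p-values were adjusted over all 13992 genes (Benjamini-Hochberg, threshold 0.05). DESeq2 1.42.0, limma 3.58.1 (voom with sample quality weights), other scalings and filters, a sex term, the replicate number as a block and each library left out were alternatives. The sources used here do not say which mice were littermates. The genes and lists were chosen with earlier results of these data known. Values in every library are given for the most abundant gene and the gene of smallest p in each role, genes with a library set apart (by Dixon's rule), and others named after their values were seen. A few markers of other cell types are not reported here. Promoter letters were read from RefSeq windows, and protein sequences were not used here.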

Additional observations from a re-analysis of the deposited data

Results flagged for a closer look

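The 31 genes were searched for a library set apart within its group of 4, where the gap between the extreme library and the nearest other, divided by the range of the group, exceeds the 95% critical value of Dixon's test. Chance flags about 1 in 20 groups of well measured values, and 8 of 62 groups (12.9%), from 7 genes, were set apart. Over all genes the share was 6.18% of groups for genes tested and 19.3% for genes with a count. In 4 of the 8 groups the other 3 libraries had 0 counts, which always sets the remaining one apart. Replicate 3 of the wild-type group accounted for 5 of these. It was set apart as highest in S100a8 at 91.7 CPM, S100a9 at 30.6 CPM, Retnlg at 4.40 CPM, Ly86 at 0.670 CPM and Vcam1 at 6.56 CPM. Among heterozygote-labelled libraries, replicate 1 was set apart as highest in Ly86 at 0.601 CPM and C1qc at 2.25 CPM, with 0 counts in the other 3 libraries of both genes. Replicate 3 was set apart as lowest in C1qb at 0 CPM.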

How the results depend on the processing

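No gene of the list passed an adjusted p of 0.05 in any alternative, where the smallest adjusted p was 0.443. The number at an unadjusted p under 0.05, 0 in the fit reported, was 4 with no filter on low counts, 1 (Adgre1) when genes needed a mean of 1 CPM, and 0 to 1 with 1 library left out (C1qa without wild-type replicate 4 or heterozygote-labelled replicate 1 or 2), where the genes entered through their wild-type counts. Of 374 log2 fold changes of single genes under alternatives, 326 kept their sign and 48 did not. The cause of the reversals was not tested. Elane was at -1.04, C1qb at -0.42 and Fcnb at 0.49 by limma-voom, and C1qb at -0.020 with library size alone. With a sex term, sex being read from Y-linked transcripts and not from the labels, Elane was at -0.68 and Ctsg at -1.05. Mpo, which kept its sign, was at -1.97. Without replicate 3 of both genotypes Fcnb was at 0.38 and Vcam1 at 0.46. With the replicate number as a block, Elane was at -0.16, C1qb at -0.19, Fcnb at 0.0079 and Mpo at 0.11, and 0 genes of the list were called, as without it. Over all genes tested, deviations of same-numbered libraries correlated at 0.044, 0.006, 0.096 and 0.022. Heterozygote-labelled replicates 1 and 3 alone correlated best with their own number. Such correlations cannot show whether same-numbered mice shared a litter or a batch, so whether the numbers pair the mice stayed unknown. Leaving out 1 library at a time moved the median of the monocyte and shared genes over -0.13 to 0.62, the highest being without wild-type replicate 2. Log2 fold changes of genes that turned ran over -0.26 to 0.90 (C1qb), -1.14 to 0.095 (Camp), -0.028 to 0.41 (Cd68), -0.27 to 0.62 (Csf1r), -0.34 to 0.94 (Elane), -0.52 to 0.31 (Fcnb), -1.45 to 0.77 (Ly6c2) and -0.84 to 0.24 (Mpo). They ran over -0.14 to 0.50 (Ms4a3), -0.50 to 0.80 (Ngp), -0.14 to 0.08 (Prtn3), -0.75 to 0.45 (S100a8), -0.22 to 0.98 (S100a9) and -2.05 to 0.091 (Vcam1). Genes that kept their sign moved too, over 1.34 to 3.40 (Mrc1), 0.020 to 2.33 (Ctsg), 0.013 to 1.08 (Fcgr3), 0.041 to 1.47 (Lcn2), -1.15 to -0.095 (Itgam), -0.93 to -0.26 (Cd163) and -0.068 to -0.0082 (Lyz2). The 10 genes not tested had 0 counts in several libraries, and the part of depth in this was not tested.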

Other observations

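The ratio of S100a8 to S100a9 in CPM, 1 of 4 ratios of partner genes computed, was 2.24, 2.36, 2.93 and 2.33 in heterozygote-labelled replicates 1 to 4 and 3.68, 3.86, 2.99 and 3.65 in wild-type replicates 1 to 4. The groups did not overlap, which was noticed after the values were seen and was not tested, and the other 3 ratios (S100a8 to Ngp, Elane to Mpo and Prtn3 to Elane) overlapped. The share of all gene pairs whose ratios separate the genotypes was not computed, so the separation cannot be set against it. The lowest wild-type and the highest heterozygote-labelled ratio were those of replicate 3, the libraries in which both transcripts were highest.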
